A study of Rattus norvegicus with 12 samples.

Results

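The genes described here are 10 regulators and markers of the Schwann cell, the glial cell that wraps and myelinates peripheral axons: Sox10, Foxd3, S100b, Cdh19, Egr2, Pou3f1, Erbb2, Erbb3, Nrg1 and Adgrg6. They were chosen by name, and each symbol matched 1 of the 30562 rows of the deposited count table. RNA came from 12 rat sciatic nerve stumps in 4 groups of 3. VP4:2 stumps had the truncated-cone conduit called 4:2 loaded with verteporfin, a compound known to block the pairing of the coactivator YAP with TEAD proteins. CC4:2 stumps had the 4:2 conduit and no verteporfin is named for them, CC4:4 stumps had the conduit called 4:4, and the last group was Control. The sources used here do not give strain, age, sex, the interval after surgery or the treatment of Control stumps. They do not tie the stumps to animals either, so the p-values cover the variation among these stumps, part of which may be technical.

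SOX10 is the transcription factor that holds cells in the Schwann lineage. With POU3F1 (Oct6) it turns on EGR2 (Krox20), and EGR2 with SOX10 drives the genes of the myelin sheath. Axons present neuregulin (Nrg1), which the Schwann cell reads through a receptor pair made by Erbb2 and Erbb3, while the adhesion receptor ADGRG6 (Gpr126) raises cyclic AMP and is needed for the onset of myelination. After nerve injury Schwann cells shut down this programme and enter a repair state, from which they can return to myelination.

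RefSeq promoter windows on the rat build GRCr8, each from 250 bases before to 50 bases after the annotated start, matched 6 of the 10 genes, namely Egr2, Foxd3, S100b, Erbb2, Adgrg6 and Cdh19. The windows of Egr2 (chr20:21054392-21054691, minus strand), Foxd3 (chr5:119450282-119450581, plus strand) and Erbb2 (chr10:83907351-83907650, plus strand) are printed because these genes changed together with Sox10 and hold a searched motif, which is in capitals.
Egr2: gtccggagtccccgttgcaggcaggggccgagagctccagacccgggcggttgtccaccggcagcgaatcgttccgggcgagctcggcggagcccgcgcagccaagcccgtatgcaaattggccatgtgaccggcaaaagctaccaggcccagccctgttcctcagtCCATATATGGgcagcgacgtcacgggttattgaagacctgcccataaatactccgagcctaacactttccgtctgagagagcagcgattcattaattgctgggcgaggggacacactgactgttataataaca
Foxd3: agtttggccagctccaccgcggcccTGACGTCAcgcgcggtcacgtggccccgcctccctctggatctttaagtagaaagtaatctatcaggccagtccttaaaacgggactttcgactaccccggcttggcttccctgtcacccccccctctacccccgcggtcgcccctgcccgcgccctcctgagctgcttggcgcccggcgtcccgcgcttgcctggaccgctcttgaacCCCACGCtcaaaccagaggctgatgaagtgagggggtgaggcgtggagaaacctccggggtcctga
Erbb2: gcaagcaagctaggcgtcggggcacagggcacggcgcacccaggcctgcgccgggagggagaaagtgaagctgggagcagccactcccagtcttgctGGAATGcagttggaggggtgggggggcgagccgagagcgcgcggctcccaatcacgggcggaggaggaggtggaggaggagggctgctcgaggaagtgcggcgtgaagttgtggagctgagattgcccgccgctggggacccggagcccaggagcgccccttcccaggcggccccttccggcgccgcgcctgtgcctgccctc
Motifs were searched on both strands and chosen with these sequences in view. The capitals in Egr2 are a CArG box, the motif that serum response factor binds, which begins 83 bases before the start and occurs in 1.64% of 33469 RefSeq rat promoters of this length. In Foxd3 they are the cyclic AMP response motif TGACGTCA, 225 bases before the start and found in 1.83% of those promoters, and the EGR core GCGTGGG on the minus strand, 16 bases before the start and found in 4.33%. In Erbb2 they are the TEAD core GGAATG, 153 bases before the start, found in 14.2%. The SOX cores ACAAAG (18.8% of promoters) and ACAATG (13.2%) were in none of the 6 windows, and S100b, Adgrg6 and Cdh19 held no searched motif. A match describes letters in a window and is not a binding site.

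Each library held 13763067 to 18632280 counts, with 17561 to 17984 genes detected. Levels below are CPM, counts relative to library size after TMM scaling, and fold changes are log2 ± standard error (SE) from the quasi-likelihood test of edgeR with 3 stumps a group. A gene was called at an adjusted p under 0.05 over all 15712 genes tested, and all 10 genes passed the filter on low counts. Gene lengths were not at hand, so levels are compared between stumps and not between genes. Prx, which encodes periaxin and is a defining marker of myelinating Schwann cells, was detected in every stump, at 1168 ± 375 CPM in VP4:2, 1983 ± 789 in CC4:2, 208.4 ± 44.8 in CC4:4 and 183.9 ± 149.9 in Control stumps (SD, n = 3 each). Control replicate 1 stood apart from the other libraries, at 84.9 on the second principal component against -34.1 and -55.9 for the other controls, and it held the lowest level of 9 of the 10 genes among controls.

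CC4:2 stumps held more transcript of 9 of the 10 genes than Control stumps, and the ligand gene Nrg1 was the exception. These 9 calls stand beside 20.3% of all tested genes called higher and 43.5% called in either direction in that comparison. None of the 9 overlapped between the groups, beside 49.3% of all tested genes that did not overlap there (23.5% with CC4:2 higher). The median change over the 10 genes was 2.61, against -0.045 over all genes tested. The same 9 genes were higher in CC4:2 than in CC4:4 stumps (18.5% of all genes higher, 39.2% called), with a median of 2.48. In VP4:2 stumps 7 were higher than in Control (9.30% of all genes higher, 18.9% called) and 6 were higher than in CC4:4 (5.70% higher, 11.2% called). In the fit of all 12 stumps none was called between VP4:2 and CC4:2 (6.23% of all genes called, 5.23% higher and 0.999% lower), nor between CC4:4 and Control, where edgeR called no gene (0%). When VP4:2 and CC4:2 stumps were paired by replicate number, 5 of the 10 were called lower in VP4:2. That fit called 783 of all genes lower and 1137 higher, and it was added after the data were seen. Its number of genes tested was not recorded, so no share of all genes is given. It also had fewer residual degrees of freedom than the fit of all 12 stumps. The comparisons share groups and so are not independent of each other. In bulk tissue, fewer Schwann cells and less RNA per Schwann cell cannot be told apart.

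**Figure D1:**
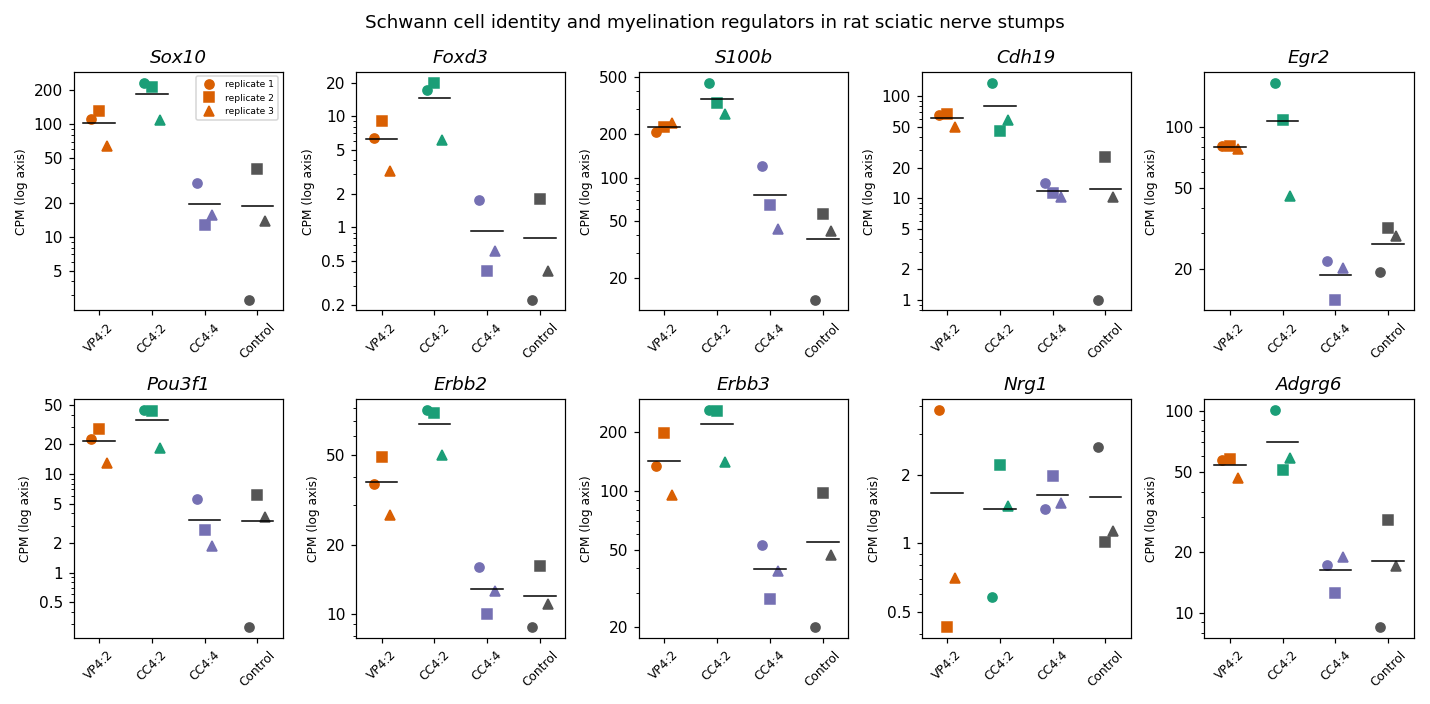
Level of each gene in each stump, as TMM-scaled CPM on a log axis that differs between panels, with replicates as symbols and the group mean as a line. In the panels other than Nrg1, the VP4:2 and CC4:2 stumps sit above the CC4:4 and Control stumps, with 1 overlap, between VP4:2 and Control for Erbb3, and Control replicate 1 is low.

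The lineage factor Sox10 stood at 112, 133 and 63.6 CPM in VP4:2 stumps, 234, 215 and 109 CPM in CC4:2 stumps, 30.2, 12.8 and 15.7 CPM in CC4:4 stumps, and 2.76, 40.1 and 13.7 CPM in Control stumps. The CC4:2 and VP4:2 values were all above the highest Control value, while Control itself spread 14.5-fold between its lowest and highest stump. Sox10 rose by 3.31 ± 0.77 in CC4:2 against Control (adjusted p = 0.00589) and by 2.45 ± 0.74 in VP4:2 against Control (adjusted p = 0.0423). Without Control replicate 1 the CC4:2 rise was 2.79 (adjusted p = 0.0039). The VP4:2 call was lost with only the 6 stumps compared (adjusted p = 0.11), without Control replicate 3 (0.14) and without any 1 of the VP4:2 replicates (0.06 to 0.11). VP4:2 against CC4:4 gave 2.39 ± 0.74, just outside the threshold (adjusted p = 0.0598), although these groups did not overlap. This difference was called with DESeq2 (adjusted p = 0.018), limma-voom (0.042), library sizes alone (0.036) and only the 6 stumps compared (0.0092). The remaining alternatives left it uncalled.

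Foxd3 encodes a forkhead factor of the neural crest, from which Schwann cells arise. It was counted 117, 167 and 59 times in VP4:2, 325, 354 and 116 times in CC4:2, 30, 6 and 9 times in CC4:4, and 4, 23 and 5 times in Control stumps, so the levels of the last 2 groups rest on few reads. In CPM this was 6.41, 8.97 and 3.19 in VP4:2, 17.2, 19.96 and 6.06 in CC4:2, 1.76, 0.407 and 0.615 in CC4:4, and 0.225, 1.80 and 0.404 in Control. The CC4:2 stumps were above every CC4:4 and Control stump, by 3.93 ± 0.80 over CC4:4 (adjusted p = 0.00349). The estimate over Control, 4.18 ± 0.82, was the highest of the 10 genes in that comparison. In VP4:2 stumps Foxd3 was higher than in Control by 2.97 ± 0.80 (adjusted p = 0.0275). That call was lost with limma-voom (adjusted p = 0.068), with only the 6 stumps compared (0.06), and without Control replicate 3 (0.098), VP4:2 replicate 1 (0.069) or VP4:2 replicate 2 (0.088).

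S100b, a calcium-binding protein used to stain Schwann cells, had 209, 225 and 238 CPM in VP4:2, 458, 330.3 and 275 CPM in CC4:2, 119.5, 64.1 and 43.6 CPM in CC4:4, and 14.1, 55.4 and 42.7 CPM in Control stumps. It was tightest in VP4:2, where the highest stump had 1.14 times the lowest. The CC4:4 and Control ranges overlapped, and the difference between them (1.02 ± 0.46, unadjusted p = 0.0504, adjusted p = 0.937) was not called. VP4:2 exceeded Control by 2.58 ± 0.49 (adjusted p = 0.0077). VP4:2 stumps did not overlap CC4:4 stumps, and that difference was not called in the main edgeR fit. It was called with DESeq2 (1.56, adjusted p = 0.0053), limma-voom (0.042) and library sizes alone (0.029). It was also called with only the 6 stumps compared (0.022) and without CC4:4 replicate 1 (0.043), and not in the remaining alternatives. S100b is also abundant in fat cells, and 10 adipocyte markers summed to 2181 to 4756 CPM in VP4:2, 1875 to 5391 in CC4:2, 572 to 3098 in CC4:4 and 569 to 683 in Control stumps. All 10 were higher in CC4:2 than in Control (6 in the NovaSeq stumps alone) and none was at 0 in any group. Their part in the S100b result was not tested.

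Cdh19, an adhesion molecule found in Schwann cells and their precursors, had 65.1, 67.7 and 49.9 CPM in VP4:2, 136, 45.8 and 58.9 CPM in CC4:2, 14.3, 11.2 and 10.3 CPM in CC4:4, and 1.01, 25.5 and 10.3 CPM in Control stumps. Replicate 1 was the high stump of CC4:2 and the low stump of Control. The rise of 2.72 ± 0.79 in CC4:2 over Control (adjusted p = 0.0174) was no longer called without CC4:2 replicate 1 (2.11, adjusted p = 0.062), without Control replicate 3 (2.62, adjusted p = 0.059) and with only the 6 stumps compared (2.71, adjusted p = 0.081). The rise over CC4:4 (2.75 ± 0.79, adjusted p = 0.0182) was likewise lost without CC4:2 replicate 1 or CC4:4 replicate 2 or 3. VP4:2 stumps did not overlap Control stumps (2.33 ± 0.78, adjusted p = 0.0594) or CC4:4 stumps (2.35 ± 0.78, adjusted p = 0.0732), and neither difference was called in the main edgeR fit. The first was called with library sizes alone (adjusted p = 0.037), DESeq2 (0.029), limma-voom (0.019), and without Control replicate 1 (0.025) or 2 (0.022). The second was called with library sizes alone (0.043), DESeq2 (0.032) and only the 6 stumps compared (0.0018). The remaining alternatives left each uncalled.

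Egr2, the zinc finger factor that switches on myelin genes, was at 80.5, 81.1 and 78.6 CPM in VP4:2, 166, 108 and 46.1 CPM in CC4:2, 21.8, 14.2 and 20.2 CPM in CC4:4, and 19.3, 31.8 and 29.1 CPM in Control stumps. The 3 VP4:2 stumps were nearly level, and they lay inside the wide CC4:2 range, whose replicate 3 was below all of them. Egr2 was higher than in Control by 2.00 ± 0.38 in CC4:2 (adjusted p = 0.00211) and by 1.58 ± 0.38 in VP4:2 (adjusted p = 0.0179). The VP4:2 call was lost without Control replicate 3 or VP4:2 replicate 2 (adjusted p = 0.053 each) or VP4:2 replicate 1 (0.052). Its estimate for VP4:2 against CC4:2, -0.42 ± 0.37, was 0.05 without CC4:2 replicate 1. CC4:4 stumps gave -0.51 ± 0.37 against Control, which was not called (adjusted p = 0.977).

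Pou3f1, the POU factor of the promyelinating stage, stood at 22.8, 28.4 and 13.04 CPM in VP4:2, 44.7, 43.2 and 18.3 CPM in CC4:2, 5.57, 2.71 and 1.85 CPM in CC4:4, and 0.281, 6.09 and 3.63 CPM in Control stumps. Replicate 3 was the lowest stump in VP4:2, CC4:2 and CC4:4, the same stumps in which Sox10 was lowest in VP4:2 and CC4:2. The rise was 3.43 ± 0.79 in CC4:2 over Control (adjusted p = 0.00558), 3.38 ± 0.78 in CC4:2 over CC4:4 (adjusted p = 0.00664), 2.71 ± 0.77 in VP4:2 over Control (adjusted p = 0.034) and 2.65 ± 0.76 in VP4:2 over CC4:4 (adjusted p = 0.048). Both VP4:2 calls were lost without any 1 of the VP4:2 replicates (adjusted p = 0.05 to 0.14). The first was also lost with only the 6 stumps compared (0.092) and without Control replicate 3 (0.095), and the second with limma-voom (0.055) and without any 1 of the CC4:4 replicates (0.065 to 0.17). Control replicate 1 held 5 counts of Pou3f1, and without it the rise in CC4:2 over Control was 2.86 (adjusted p = 0.0032).

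Erbb2, the signalling partner of the neuregulin receptor, had 37.1, 49.0 and 27.3 CPM in VP4:2, 78.4, 76.0 and 49.9 CPM in CC4:2, 16.1, 10.03 and 12.6 CPM in CC4:4, and 8.77, 16.2 and 11.1 CPM in Control stumps. It had the smallest SE of the 10 genes, and its CC4:2 stumps lay above all VP4:2 stumps. The rise in CC4:2 was 2.50 ± 0.31 over Control (adjusted p = 0.000197) and 2.40 ± 0.30 over CC4:4 (adjusted p = 0.00034). VP4:2 stumps were higher than Control by 1.65 ± 0.30 (adjusted p = 0.00679) and than CC4:4 by 1.55 ± 0.30 (adjusted p = 0.0137), and the call over CC4:4 was lost without VP4:2 replicate 2 (0.052) or CC4:4 replicate 2 (0.068).

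Erbb3, the subunit that binds neuregulin, had 134, 199 and 95.6 CPM in VP4:2, 259, 258 and 140 CPM in CC4:2, 52.9, 27.8 and 38.9 CPM in CC4:4, and 20.1, 97.1 and 47.0 CPM in Control stumps. Control replicate 2 was above the lowest VP4:2 stump. CC4:2 stumps were higher than Control by 2.00 ± 0.51 (adjusted p = 0.00988) and higher than CC4:4 by 2.46 ± 0.52 (adjusted p = 0.00442). VP4:2 was higher than CC4:4 by 1.84 ± 0.51 (adjusted p = 0.0429), a call that was lost whichever of the 6 libraries was left out (adjusted p = 0.06 to 0.17). Its difference from Control (1.38 ± 0.51, adjusted p = 0.0793) was not called in the main edgeR fit. It was called without Control replicate 2 (2.10, adjusted p = 0.021) and with DESeq2 (0.023), limma-voom (0.048) or library sizes alone (0.041).

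Adgrg6, the adhesion receptor, had 57.2, 58.0 and 46.5 CPM in VP4:2, 101, 51.3 and 58.4 CPM in CC4:2, 17.3, 12.5 and 18.9 CPM in CC4:4, and 8.55, 29.0 and 17.1 CPM in Control stumps. VP4:2 and CC4:2 overlapped, and both were clear of CC4:4 and Control. The rise over Control was 1.95 ± 0.40 in CC4:2 (adjusted p = 0.00292) and 1.57 ± 0.39 in VP4:2 (adjusted p = 0.0215), and that over CC4:4 was 2.11 ± 0.40 in CC4:2 (adjusted p = 0.00238) and 1.73 ± 0.39 in VP4:2 (adjusted p = 0.0224). The VP4:2 call over Control was lost with only the 6 stumps compared (adjusted p = 0.058) and without Control replicate 3 (0.074) or VP4:2 replicate 1 (0.062) or 2 (0.064). The call over CC4:4 was lost without VP4:2 replicate 1 (0.07) or 2 (0.072) or CC4:4 replicate 1 (0.055) or 2 (0.1).

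Nrg1 was counted 70, 8 and 13 times in VP4:2, 11, 39 and 28 times in CC4:2, 24, 29 and 22 times in CC4:4, and 47, 13 and 14 times in Control stumps. Much of the neuregulin that reaches Schwann cells is made in neurons whose cell bodies lie outside the nerve, and these counts cover only RNA in the stump. The groups overlapped in every comparison, and all 6 estimates lay between -0.20 and 0.23 with adjusted p of 0.853 or more. The interval for CC4:2 against Control (-0.19 ± 0.77, 95% interval -1.88 to 1.49) leaves room for changes of more than 2-fold in either direction, so a change of that size could not be told from none with these stumps. Its sign also turned between settings.

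**Figure D2:**
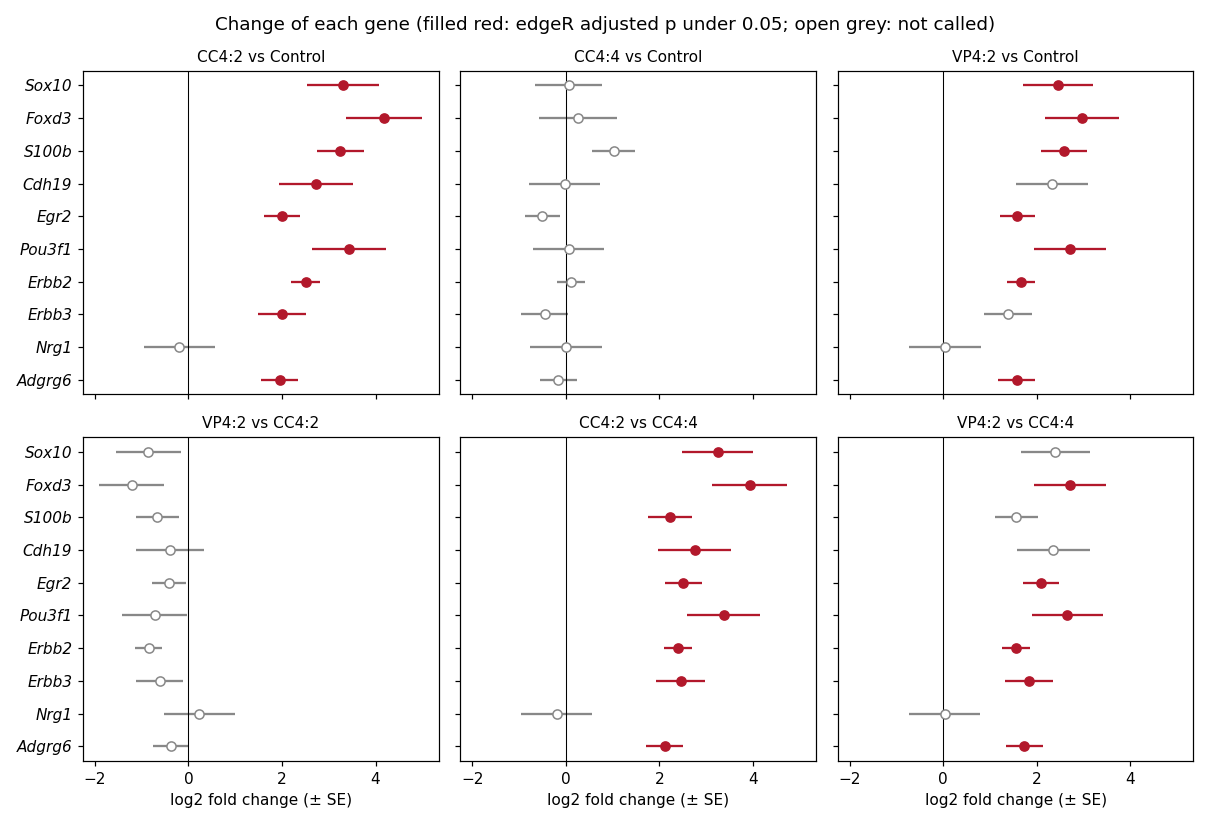
Log2 fold change of each gene with its SE (3 stumps a group) in 6 comparisons, filled where edgeR called the gene. Estimates for 9 genes lie above 0 in the 4 comparisons of a 4:2 conduit with CC4:4 or Control, those for Nrg1 stay near 0, and no gene is filled in VP4:2 against CC4:2 or CC4:4 against Control in this fit of all 12 stumps.

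Verteporfin in the 4:2 conduit was examined by setting VP4:2 against CC4:2. The mean of 9 genes was lower in VP4:2 than in CC4:2, with estimates between -0.38 and -1.22 and a median over the 10 genes of -0.64, against -0.027 over all genes tested. With all 12 stumps in the fit and no pairing, none of the 10 was called by edgeR or limma-voom, 1 had an unadjusted p under 0.05, and DESeq2 called 1, the same gene, Erbb2. Its estimate was -0.85 ± 0.29 (unadjusted p = 0.0134, adjusted p = 0.116, 95% interval -1.48 to -0.22), and with DESeq2 it was -0.86 (adjusted p = 0.044). Of the 10, Erbb2 and S100b did not overlap between the groups, whereas 32.2% of all tested genes did not (14.6% with VP4:2 lower). In that fit the 95% intervals of the others reached both sides of 0, such as -2.40 to 0.69 for Sox10, -1.22 to 0.39 for Egr2 and -2.74 to 0.31 for Foxd3, so falls of over 2-fold are within them. For 9 genes the order of the group means was CC4:2, then VP4:2, then CC4:4 and Control. In the fit of all 12 stumps edgeR called neither the step between the first pair nor that between the last pair for any of the 9.

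Stumps of VP4:2 and CC4:2 with the same replicate number deviated together from their group means (correlations over all tested genes of 0.119, 0.277 and 0.433). Replicate 3 was the DNBSEQ stump of both groups, so its number cannot be told apart from its sequencing platform. Within these 3 numbered pairs, Sox10, Pou3f1, Foxd3, S100b, Erbb2 and Erbb3 were lower in the VP4:2 stump every time, 6 of the 10 genes beside 26.7% of all tested genes. Sox10 differed by -1.06, -0.70 and -0.78 on the log2 scale in pairs 1, 2 and 3, and Foxd3 by -1.41, -1.14 and -0.90. Egr2 differed by -1.04, -0.42 and 0.77, so its direction was not shared by the pairs. A setting added after the data were seen had the pair as a block and only these 6 stumps in the edgeR fit. Over all genes it called 783 lower and 1137 higher in VP4:2. Of the 10 genes, 5 were called lower in VP4:2. They were Sox10 (-0.84, adjusted p = 0.014), Foxd3 (-1.17, adjusted p = 0.017), Erbb2 (-0.85, adjusted p = 0.016), Pou3f1 (-0.68, adjusted p = 0.034) and Erbb3 (-0.62, adjusted p = 0.047). S100b gave -0.62 there and was not called (adjusted p = 0.1). With the block in the fit of all 12 stumps none (0) was called, and Sox10 gave -0.87 (adjusted p = 0.51).

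The 2 conduits without verteporfin were compared by setting CC4:2 against CC4:4, where 9 of the 10 genes were higher in CC4:2. Their estimates ran from 2.11 for Adgrg6 to 3.93 for Foxd3, with 3.25 ± 0.76 for Sox10 (adjusted p = 0.00727) and 2.51 ± 0.39 for Egr2 (adjusted p = 0.000868). Nrg1 gave -0.20 ± 0.76 and was not called.

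CC4:4 stumps were also set against Control stumps, for which no conduit is named. Here the estimates ran from -0.51 for Egr2 to 1.02 for S100b, with a median of 0.033 against -0.011 over all genes. None of the 10 genes (0) reached an unadjusted p under 0.05, against 830 of all tested genes. None of the 10 was called by DESeq2 or limma-voom, which called 10 and 0 genes in all. The intervals were wide, from -1.51 to 1.64 for Sox10, while for Erbb2 they were -0.54 to 0.76. Without Control replicate 1 the estimates of Sox10 (-0.45), Pou3f1 (-0.51), Foxd3 (-0.22) and Erbb2 (-0.07) turned below 0, and none was called.

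Per the labels, a NovaSeq X Plus was used for replicates 1 and 2 of each group and a DNBSEQ-T7 for replicate 3, so platforms were balanced over the groups. Within the NovaSeq stumps, with 2 a group, CC4:2 against Control gave 3220 calls over all genes, 1518 of them higher. Among the 10 the CC4:2 rise kept 6 calls, for Egr2 (2.43), Pou3f1 (3.83), Foxd3 (4.27), S100b (3.51), Erbb2 (2.64) and Adgrg6 (2.03). Sox10 (3.40, adjusted p = 0.062), Erbb3 (2.15, adjusted p = 0.069) and Cdh19 (2.79, adjusted p = 0.13) were of like size and not called there. Within the DNBSEQ stumps, with 1 a group and hence no test, the log2 difference was 2.98 for Sox10, 2.29 for Pou3f1, 3.56 for Foxd3 and 0.66 for Egr2. In VP4:2 against Control and against CC4:4 the NovaSeq stumps alone gave no call (0) among the 10 genes, with estimates of 2.53 and 2.49 for Sox10. Totals over all genes were low there too, with 19 calls in VP4:2 against Control, 2 of them higher. Sequencing platform as a covariate left 9, 7, 9 and 6 calls in CC4:2 against Control, VP4:2 against Control, CC4:2 against CC4:4 and VP4:2 against CC4:4.

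Each gene was also described relative to Sox10, as its log2 CPM minus that of Sox10 in the same stump. A two-sided exact permutation test of 3 stumps against 3 has a smallest possible p of 0.1, so no difference in these values could pass 0.05, and over the 54 tests the smallest adjusted p was 0.36. For Egr2 this difference was -0.48, -0.71 and 0.30 in VP4:2, -0.50, -0.98 and -1.25 in CC4:2, -0.47, 0.14 and 0.36 in CC4:4, and 2.75, -0.33 and 1.08 in Control stumps. All CC4:2 stumps were below all Control stumps and below all CC4:4 stumps, with mean differences of -2.08 and -0.92 (exact p = 0.1 each). Control replicate 1 was the most distant stump, with 49 counts of Sox10 and 343 of Egr2, and without it the mean difference of CC4:2 from Control was -1.28. Relative to Sox10, Erbb3 (-1.70), Adgrg6 (-1.87) and Nrg1 (-4.12) were also lower in every CC4:2 than every Control stump (exact p = 0.1 each). Without Control replicate 1 the differences of Erbb3 and Adgrg6 were -1.27 and -1.32. Nrg1 minus Sox10 was -0.06 in Control replicate 1 and -5.15 and -3.47 in Control replicates 2 and 3, so its difference leaned on that stump. Against CC4:4 the same held for Adgrg6 (-1.21), S100b (-0.95), Erbb2 (-0.88), Erbb3 (-0.82) and Nrg1 (-3.60), so the pattern was not particular to Egr2. Pou3f1 kept within -2.22 and -2.29 of Sox10 in VP4:2, -2.31 and -2.58 in CC4:2, -2.19 and -3.005 in CC4:4, and -1.88 and -2.84 in Control stumps, and its CC4:2 mean differed from that of Control by 0.05 (exact p = 0.9).

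**Figure D3:**
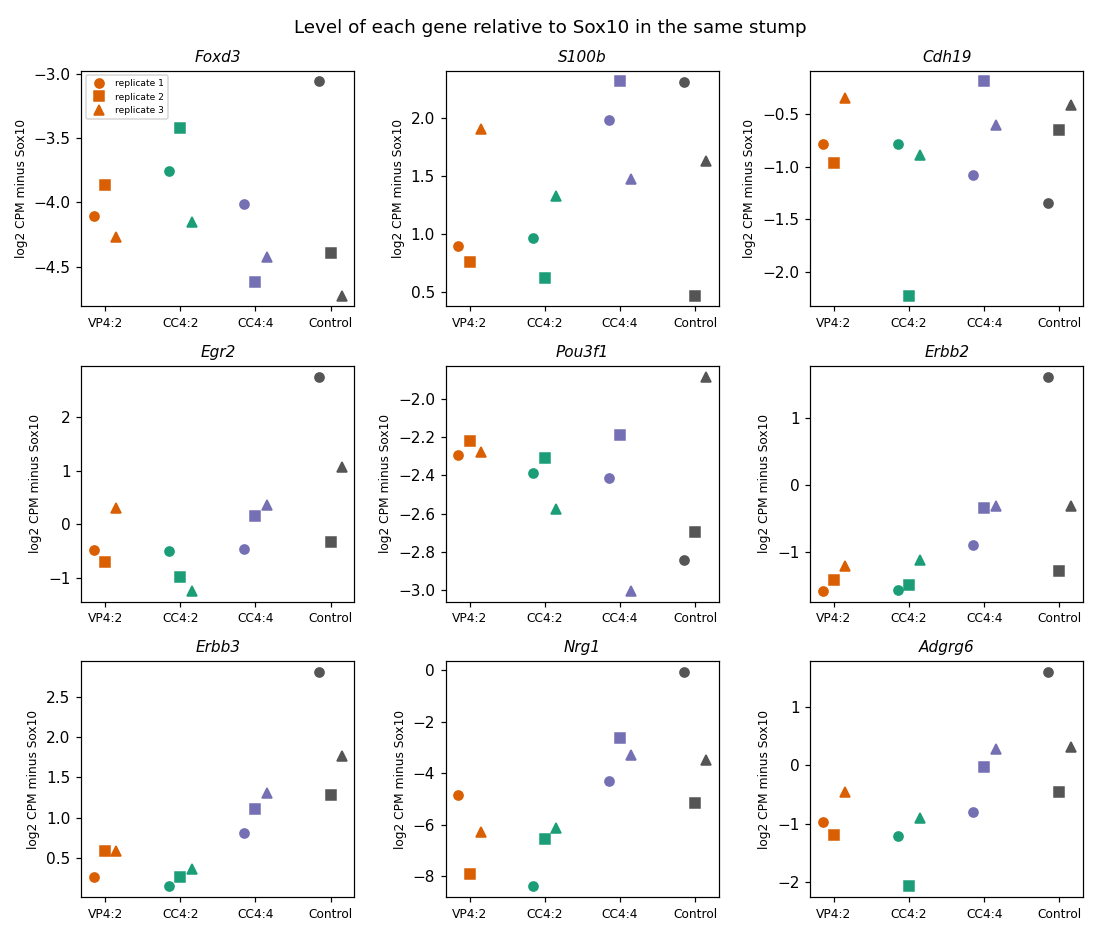
Log2 CPM of 9 genes minus log2 CPM of Sox10 in the same stump, with replicates as symbols and a vertical axis that differs between panels. Pou3f1 spans -3.005 to -1.88 over all stumps, while Egr2 spans -1.25 to 2.75, with Control replicate 1 at the top.

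Across the 12 stumps, which share group, library and depth, the log2 CPM of Sox10 followed that of Pou3f1 with a Pearson r of 0.99, and of 0.962 after the group means were taken away. For Egr2 the values were 0.879 and 0.621, for Erbb3 0.975 and 0.973, and for Nrg1 -0.337 and -0.357. Of all tested genes with a usual symbol and a mean of at least 1 CPM, those most like Sox10 were Mag, Gpr37l1, Igsf11, Sox8 and Rasgef1c (r = 0.993 to 0.995, n = 12), and the first of them, Mag, is a gene of the myelin sheath. Those most like Pou3f1 included Cldn19 and Prx, both genes of myelinating Schwann cells, and Sostdc1 and Svip were among those most like Cdh19 (r = 0.995 each). Egr2 was followed most closely by Shtn1, Lrrc75a and Lingo1 (r = 0.974 to 0.986), Erbb2 by Mmp15 and Lrig1, Erbb3 by L1cam, Adgrg6 by Prrg4, and Foxd3 by Mmp15. The genes most like S100b were Mrap, Gdf10, Plaat3, Sfrp5 and Ntn1 (r = 0.978 to 0.981). For Nrg1 the best match of levels, Rbfa, had r = 0.854, and after group means were taken away it ran with the smooth muscle genes Lmod1, Actg2 and Acta2 (r = 0.905 to 0.919). Nrg1 counts were few, at 70, 8 and 13 in VP4:2 and 47, 13 and 14 in Control stumps. How far single libraries carried its correlations was not tested. All the likeness values here are descriptions over 12 points, taken as the best among all genes searched.

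Myelin sheath genes, many of them known targets of SOX10 and EGR2, were higher in the same comparisons. Of 18 myelin sheath genes, all 18 were called higher in CC4:2 than in Control (median 3.13) and all 18 higher than in CC4:4 (median 3.02), while 16 were higher in VP4:2 than in Control (median 2.52) and 13 than in CC4:4 (median 2.44). Single libraries moved both VP4:2 counts. The 16 were 2 without Control replicate 3 or VP4:2 replicate 2, 3 without VP4:2 replicate 1, 1 with only the 6 stumps compared and 0 in the NovaSeq stumps. The 13 were 0 without VP4:2 replicate 1 or 2 or any 1 of the CC4:4 replicates, 3 without VP4:2 replicate 3, 8 with platform as a covariate and 0 in the NovaSeq stumps. Ncmap rose by 3.38 ± 0.64 and Cnp, an enzyme of myelin, by 2.18 ± 0.41 in CC4:2 over Control. The summed level of the list was 14565 to 22026 CPM in VP4:2, 16032 to 41828 CPM in CC4:2, 3167 to 3997 CPM in CC4:4, and 579 to 5517 CPM in Control stumps. No myelin gene (0 of 18) was called between VP4:2 and CC4:2, where the median was -0.60 (2 lower in the paired fit of those 6 stumps), nor between CC4:4 and Control. With the NovaSeq stumps alone, 11 of 18 were called in CC4:2 over Control and 6 of 18 in CC4:2 over CC4:4.

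Among 15 factors that act beside SOX10 and EGR2 in favour of myelination, 7 were higher in CC4:2 than in Control, none was lower and 8 were not called (median 0.345). The share called, 46.7%, was above the 20.3% of all tested genes called higher there and near the 43.5% called in either direction. With only the 6 stumps compared 4 were called. The 7 included the close relative Sox8 (3.03 ± 0.64, adjusted p = 0.00361, and 0.059 in the NovaSeq stumps alone), the corepressor Ski (1.04 ± 0.18), the lipid synthesis factor Srebf1 (1.77 ± 0.41) and Tead1 (1.43 ± 0.17, adjusted p = 0.000171), a DNA-binding partner of YAP. None was called in VP4:2 against CC4:2 (DESeq2 called 3 lower and the paired fit 2), where Tead1 gave -0.50 ± 0.16 (adjusted p = 0.106) and Ski -0.60 ± 0.18 (adjusted p = 0.074).

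Genes linked to an immature or repair state went both ways. Of 15 listed, 13 were tested, and in CC4:2 over Control 7 were higher and 3 lower, with a median of 0.69. The Notch target Hes1 rose by 1.27 ± 0.18 and the endothelin receptor gene Ednrb by 0.96 ± 0.15, while Runx2, a runt factor best known from bone, fell by 1.45 ± 0.21 and Rbpj, the DNA-binding partner of Notch, fell by 0.74 ± 0.16. Jun, which drives the repair state, was higher by 0.74 ± 0.19 (adjusted p = 0.00881). The largest estimate of the list was that of Sox2 (2.41 ± 0.75, adjusted p = 0.0241), and Id2 was the other lower gene (-0.80 ± 0.26, adjusted p = 0.0268). Runx2 was the member of this list called in VP4:2 against CC4:2 (0.89 ± 0.21, adjusted p = 0.0309), at 24.3 to 30.4 CPM in VP4:2 and 12.6 to 16.6 CPM in CC4:2 stumps, and that call was lost whichever of the 6 libraries was left out.

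Of 21 listed genes of neuregulin signalling other than the 10, 19 were tested, and in CC4:2 against Control 9 were higher and 2 lower, with a median of 0.38. The share called was 57.9%, beside 43.5% of all tested genes, and with only the 6 stumps compared 6 were higher and 1 lower. Highest in rank by p were Egfr, a relative of Erbb2 (2.18 ± 0.18, adjusted p = 3.4e-05), Lrig1, a negative regulator of these receptors (2.13 ± 0.24), the adaptor Gab1 (1.52 ± 0.19) and Bace1, a protease that cuts neuregulin (1.24 ± 0.21). The adaptors Grb2 (-0.63 ± 0.12) and Shc1 (-0.61 ± 0.22) were the 2 lower ones. Egfr was also lower in VP4:2 than in CC4:2 (-0.84 ± 0.18, adjusted p = 0.0177), at 28.8 to 39.4 CPM in VP4:2, 56.2 to 61.5 CPM in CC4:2, 15.1 to 20.4 CPM in CC4:4 and 10.98 to 15.9 CPM in Control stumps, and this call was lost without VP4:2 replicate 1 or 3 or CC4:2 replicate 2.

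Genes listed for Adgrg6 ligands and cyclic AMP signalling, not sorted by whether they raise or lower it, were mostly higher in CC4:2. Of 17 listed, 16 were tested, and 13 were higher and 1 lower than in Control (median 1.54), or 9 higher with only the 6 stumps compared. The laminin genes Lamc1 (1.63 ± 0.21) and Lamb1 (1.53 ± 0.23), the G protein gene Gnai1 (1.90 ± 0.24) and the cyclase gene Adcy6 (1.54 ± 0.23) had the smallest p, while the kinase subunit gene Prkacb fell by 0.47 ± 0.11. In VP4:2 over Control 6 of the 16 were higher (median 0.79), but 2 without Control replicate 3, 3 without VP4:2 replicate 1 or 2 or with only the 6 stumps compared, and 0 in the NovaSeq stumps. None was called in VP4:2 against CC4:2 (median -0.56), where the paired fit called 5 lower and 1 higher and DESeq2 4 lower and 1 higher. Of 20 other Schwann lineage genes, 18 were tested and 11 were higher and 2 lower in CC4:2 than in Control (median 2.06). They included the integrin genes Itga6 (2.67 ± 0.31), Itgb4 (3.65 ± 0.59) and Itgb8 (2.93 ± 0.53) and Dhh, the Schwann cell signal to the nerve sheath (2.79 ± 0.44), while the cadherin gene Cdh2 fell by 0.79 ± 0.26 and Ets1 fell by 0.85 ± 0.17. With the NovaSeq stumps alone, calls in either direction in CC4:2 against Control numbered 3 among the myelination cofactors, 4 among the immature and repair genes, 6 in the neuregulin list and 7 in the Adgrg6 list.

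Markers of other cells moved with the same groups. All 4 tested perineurial markers, among them Itgb4, which is also on the Schwann lineage list, were higher in CC4:2 than in Control, and the list summed to 1469 to 2041 CPM in VP4:2, 3750 to 4295 CPM in CC4:2, 320 to 529 CPM in CC4:4 and 204 to 753 CPM in Control stumps. Of 12 macrophage markers, 8 were lower in CC4:2 than in Control and none higher. In VP4:2 against CC4:2, 7 were higher (3 in the NovaSeq stumps, and 3 to 9 called in either direction over the alternatives). Their sum was 4647 to 5766 CPM in VP4:2, 1434 to 1788 CPM in CC4:2, 3413 to 4763 CPM in CC4:4 and 4735 to 4743 CPM in Control stumps. All 7 B and plasma cell markers were lower in CC4:2 than in Control, with sums of 325 to 1182 CPM in VP4:2, 12.5 to 190 CPM in CC4:2, 2506 to 5632 CPM in CC4:4 and 759 to 6937 CPM in Control stumps. No perineurial, macrophage or B cell marker in the table was at 0 in any of the 4 groups, and the part of these cells in the results on the 10 genes was not tested. Melanocytes, which also use Sox10 and Erbb3, were followed by 6 markers, which summed to 47.7 to 62.0 CPM in VP4:2, 30.5 to 41.8 CPM in CC4:2, 28.8 to 38.2 CPM in CC4:4 and 30.6 to 39.2 CPM in Control stumps, so that every VP4:2 stump was above all others. Tyr, which encodes tyrosinase, was at 0 in VP4:2, CC4:2 and Control. Of the 3 melanocyte markers tested in VP4:2 against CC4:4, Pmel was lower (-0.80 ± 0.46) and Mlana higher (1.28 ± 0.89), and neither was called. Mitf, the pigment cell master factor, was the 1 called, higher in VP4:2 (0.77 ± 0.19, adjusted p = 0.0267). That count of 1 was 0 in the NovaSeq stumps, without any 1 of the VP4:2 replicates and without CC4:4 replicate 1 or 2. None was called between CC4:2 and Control, or 1 without Control replicate 3 or CC4:2 replicate 1, and the part of such cells in the results on Sox10 and Erbb3 was not tested. In CC4:2 against Control all 7 neutrophil markers and all 9 tested T and NK cell markers were lower. Of 10 fibroblast markers 3 were higher, but 7 without Control replicate 1, 1 without CC4:2 replicate 2 and 0 in the NovaSeq stumps. Of 7 tested endothelial markers 2 were higher, but 4 without Control replicate 1, and 1 when replicate 2 or 3 of either group was left out. Of 7 tested neuronal transcripts 2 were higher and 1 lower, but 0 higher and 1 lower without Control replicate 2 or 3 or CC4:2 replicate 1, and with limma-voom, the block, only the 6 stumps compared or the NovaSeq stumps. Of the remaining lists, 1 of 5 epithelial and 1 of 5 cartilage markers were higher, and 0 of 7 skeletal muscle markers were called.

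**Figure D4:**
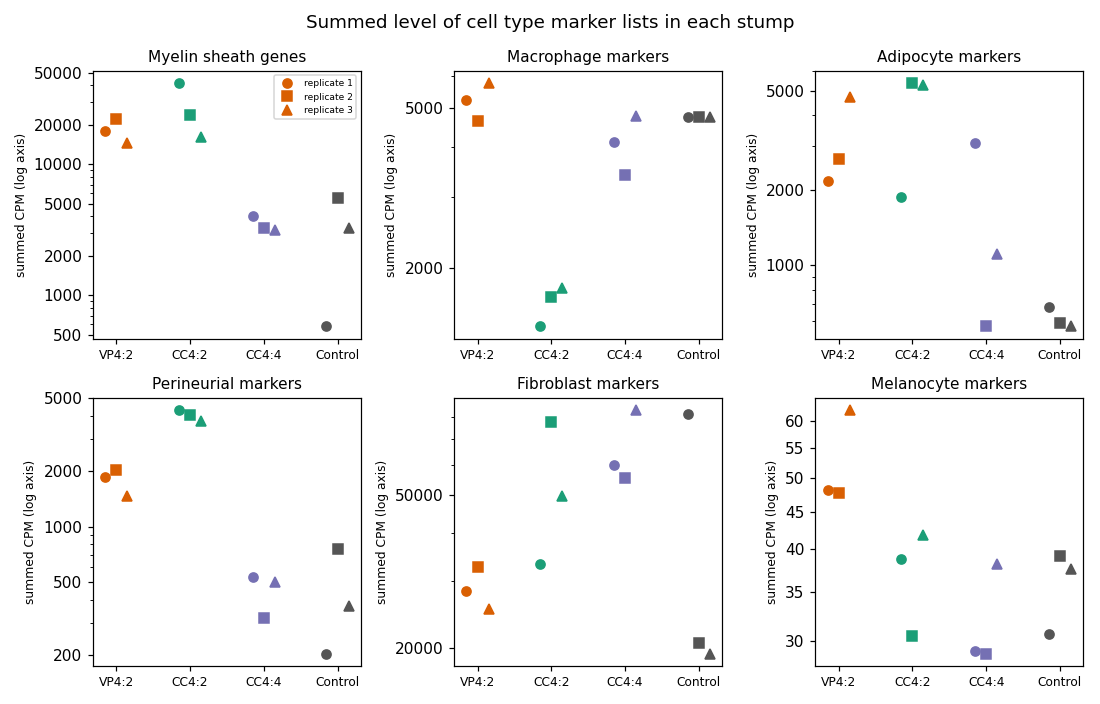
Summed CPM of 6 marker lists in each stump on a log axis that differs between panels, with replicates as symbols. Myelin and perineurial sums are higher in both 4:2 groups than in CC4:4 and Control, and macrophage sums are lowest in CC4:2, at 1434 to 1788 CPM.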

How the data were processed

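Libraries were stranded, poly(A)-selected and read from both ends for 150 bases, per the labels' protocols. The authors deposited expected counts per gene with no normalization recorded, and 9.44% to 11.12% of the values in a sample were not whole. Per the submitters' processing notes, HISAT2, StringTie, RSEM and DESeq2 were used. The sources used here give no roles, genome build or annotation. The 12 deposited tables were identical and 11 were not used.

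Counts were rounded and tested with edgeR 4.0.16 (quasi-likelihood, TMM, filterByExpr, Benjamini-Hochberg) in R 4.3.3, with all 12 samples in 1 fit and 8 residual degrees of freedom. SE was obtained from F as |log2 fold change| over its square root. Alternatives used DESeq2 1.42.0, limma 3.58.1, other scalings and filters, a replicate block, platform, and single libraries left out. Same-numbered VP4:2 and CC4:2 samples deviated together (correlations 0.119, 0.277 and 0.433), so these 2 groups were also paired by number. Replicates differed by more than sampling noise (chi-square per degree of freedom 49.7 to 336). Estimated counts for Erbb2, Nrg1 and Cdh19 included values that were not whole, so reads shared with other genes may enter them. Log2 CPM for ratios and correlations used a prior count of 2. The 10 genes, the 19 lists (216 genes) and the tests were chosen with earlier results of these data known. Named genes were the 10, the 4 of smallest p in each list, and the 5 most like each of the 10. Jun, Sox2, Id2, Grb2, Shc1, Prkacb, Cdh2 and Ets1 were added after their values were seen. The test was checked on simulated data.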

Additional observations from a re-analysis of the deposited data

How the results depend on the processing

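The 9 calls for CC4:2 against Control kept their direction in all 18 alternatives, and 6 were called in every one. For CC4:2 against CC4:4, 5 of 9 held throughout, and for VP4:2 against Control and against CC4:4 none (0) of the 7 and 6 did. Replicates with the same number deviated together in VP4:2 and CC4:2, where all 3 correlations were over 0.1, and not throughout in the other comparisons (-0.402 to 0.433 in all, 7 of 18 over 0.1, and 5 of 12 samples closest to their own number), so only those 2 groups were taken as paired. With the replicate block and only those 6 stumps, a setting added after the data were seen, 5 of the 10 and 1920 of all genes were called in VP4:2 against CC4:2, and Nrg1 was -0.23. The replicate block gave 9, 0, 0, 5, 9 and 4 called genes of the 10 in CC4:2 against Control, VP4:2 against CC4:2, CC4:4 against Control, VP4:2 against Control, CC4:2 against CC4:4 and VP4:2 against CC4:4. The calls lost with it were Sox10 and Pou3f1 in VP4:2 against Control (adjusted p = 0.051 each) and Pou3f1 (0.065) and Erbb3 (0.063) in VP4:2 against CC4:4, where 4 of 18 myelin genes were called.

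With only the 6 stumps of a comparison in the fit, calls among the 10 were 3 in VP4:2 against Control, and calls over all genes were 4363 in CC4:2 against Control, 1869 in VP4:2 against Control and 3321 in VP4:2 against CC4:4. With the NovaSeq stumps alone, calls among the 10 were 0 in VP4:2 against Control, 5 in CC4:2 against CC4:4 and 0 in VP4:2 against CC4:4. Over all genes they were 3220 in CC4:2 against Control, 202 in VP4:2 against CC4:2, 19 in VP4:2 against Control, 3253 in CC4:2 against CC4:4 and 29 in VP4:2 against CC4:4, where fewer samples enter by construction. DESeq2 called 1 of the 10 in VP4:2 against CC4:2, and over all genes 1861 there, 10 in CC4:4 against Control and 3083 in VP4:2 against CC4:4. Library sizes with no TMM called 2822 genes in VP4:2 against CC4:4. They moved the median of all genes up by 0.205, 0.236, 0.213 and 0.246 in CC4:2 against Control, VP4:2 against Control, CC4:2 against CC4:4 and VP4:2 against CC4:4, and the share called higher to 63%, 75.5%, 65.5% and 80.1%, against main splits of 3186 higher and 3649 lower, 1461 and 1503, 2905 and 3251, and 896 and 866.

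With 1 library left out, calls among the 10 ran from 2 to 9 in VP4:2 against Control and from 0 to 4 in VP4:2 against CC4:4. In the first they were 2 without Control replicate 3 or VP4:2 replicate 1 or 2, and in the second 0 without CC4:4 replicate 2, 1 without VP4:2 replicate 2, 2 without VP4:2 replicate 1, and 3 without VP4:2 replicate 3 or CC4:4 replicate 3. Calls over all genes ran from 466 to 746 in VP4:2 against CC4:2 (548 without CC4:2 replicate 2, 550 without VP4:2 replicate 1, 466 without VP4:2 replicate 3), from 0 to 295 in CC4:4 against Control (295 without Control replicate 1, 1 without Control replicate 3 or CC4:4 replicate 3), from 1166 to 4294 in VP4:2 against Control (1166 without Control replicate 3, 1220, 1228 and 1605 without VP4:2 replicates 1, 2 and 3), and from 232 to 1175 in VP4:2 against CC4:4 (232 and 1028 without CC4:4 replicates 2 and 1, 341, 389 and 737 without VP4:2 replicates 1, 2 and 3). The cause was not tested.

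Estimates that turned sign were all of genes not called. Nrg1 was 0.06 with the block in CC4:2 against Control. For VP4:2 against CC4:2 it was -0.21 with limma-voom and -0.16 with the block. In CC4:4 against Control it was -0.02 by library sizes and -0.09 in NovaSeq stumps. For VP4:2 against Control it was -0.54 with limma-voom, 0.00 with only the 6 stumps, -0.11 with the block and -0.01 with platform. It was 0.00 by library sizes in CC4:2 against CC4:4. For VP4:2 against CC4:4 it was -0.59 with limma-voom, -0.28 with the block and -0.06 with platform. In CC4:4 against Control, Pou3f1 was -0.07 with platform, Adgrg6 0.05 with limma-voom, and Cdh19 1.11 with limma-voom and 0.05 with the block. With 1 library left out, Nrg1 ran from -0.65 to 0.40 in CC4:2 against Control, -1.31 to 0.69 in VP4:2 against CC4:2, -0.20 to 0.60 in CC4:4 against Control, -1.50 to 0.63 in VP4:2 against Control, -0.66 to 0.17 in CC4:2 against CC4:4 and -1.51 to 0.48 in VP4:2 against CC4:4. In VP4:2 against CC4:2, Egr2 ran from -0.78 to 0.05 and Cdh19 from -0.68 to 0.22. In CC4:4 against Control, Sox10 ran from -0.45 to 1.28, Pou3f1 from -0.51 to 0.88, Foxd3 from -0.61 to 1.63, Erbb2 from -0.08 to 0.41, Erbb3 from -0.85 to 0.27, Adgrg6 from -0.50 to 0.36 and Cdh19 from -0.58 to 1.12.

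Of the differences from Sox10, a prior count of 5 gave -0.12 for Pou3f1 and -0.04 for Foxd3 in CC4:2 against Control, and a prior count of 0.5 gave 0.02 for Pou3f1 in CC4:4 against Control and 0.20 for Foxd3 in VP4:2 against Control. With 1 library left out, they ran in CC4:2 against Control from -0.14 to 0.34 for Pou3f1 and -0.05 to 0.78 for Foxd3. In VP4:2 against CC4:2 they ran from -0.14 to 0.43 for S100b, -0.11 to 0.12 for Erbb2 and -0.08 to 1.46 for Nrg1. In CC4:4 against Control they ran from -0.25 to 0.23 for Pou3f1, -0.63 to 0.21 for Foxd3, -0.05 to 0.87 for S100b, -1.18 to 0.28 for Erbb2, -1.64 to 0.90 for Nrg1 and -0.09 to 0.41 for Cdh19. In VP4:2 against Control they ran from -0.35 to 0.48 for Foxd3, -0.78 to 0.14 for S100b and -0.17 to 0.30 for Cdh19. They ran from -0.12 to 0.28 for Pou3f1 in CC4:2 against CC4:4, and from -0.30 to 0.14 for Cdh19 in VP4:2 against CC4:4. Counts were low for Nrg1 and, in Control and CC4:4, for Foxd3 and Pou3f1, and counting error was not separated there from variation between stumps.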
